A study of Saccharomyces cerevisiae with 28 samples.

Results

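Slf1 binding was set against mRNA abundance in yeast cells treated with peroxide, to ask whether mRNAs newly induced by the stress were bound in proportion to their level. The comparison rests on 4 of the 28 samples, 2 Slf1 PAR-CLIP libraries and 2 total RNA libraries, chosen by their condition and not by any measured value. Cells of the BY4741 background expressed Slf1 from its chromosomal gene and native promoter, fused at its C-terminus to a TAP tag, and were treated with 0.4 mM H2O2 for 15 min. PAR-CLIP cultures also received 4-thiouracil, whereas total RNA came from separate cultures, for which the paper's methods do not mention it. The remaining libraries used were the untreated Slf1-TAP counterparts of both assays, PAR-CLIP and total RNA of Sro9-TAP cells in both conditions, and total RNA of untagged cells (WT) of the same background, untreated or with the same H2O2 dose and time, with 2 libraries per group.

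Slf1 and Sro9 are the La-related proteins (LARPs) of budding yeast, RNA-binding proteins that share a La motif and associate with translating ribosomes. Peroxide attenuates translation initiation while the transcription factors Yap1, Skn7 and Msn2/Msn4 raise the mRNAs of thioredoxins, peroxiredoxins, catalase, chaperones and pentose phosphate enzymes. Cells lacking Slf1 are sensitive to peroxide. In PAR-CLIP, 4-thiouracil in RNA is crosslinked to protein by 365 nm light, and reverse transcription then tends to copy the linked base as if it were C, so that T–C conversions mark contacts.

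The 2 PAR-CLIP libraries held 31036 and 20063 reads on mRNAs in replicates A and B, counting clusters of 11 to 100 nt that had 5 reads and 2 T–C conversions or more and whose mode lay in an ORF or within 200 nt after a stop codon. The untreated libraries held 22886 and 32478. Total RNA was far deeper, with 28421352 and 31483825 counts on mRNAs after peroxide. GEO's labels call the 2 total RNA libraries untreated Sro9-TAP, whereas their file names say Slf1-TAP and peroxide, and the file names were followed here. In these libraries SRX1, which encodes the peroxide-induced sulfiredoxin, stood at 1201 and 1158 CPM (counts scaled to mRNA totals), against 3.72 and 3.85 in the libraries whose files are named untreated, so the labels run against the SRX1 level. Counts that the study lists for untreated Slf1-TAP replicate A equalled those of the library with that file name for 366 of 370 genes. The same held for peroxide Sro9-TAP replicate A, with 366 of 370. The peroxide Slf1-TAP libraries, the denominators here, were not matched to listed counts of their own in this way.

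The sequences below are the clusters on which the results turn, read from the deposited cluster tables, identical in the R64 genome, 5′ to 3′ on the strand of the mRNA, with every T, the base that can convert, in capitals. The first 7 are from OLA1 and RPS0A, the mRNAs with most reads, and from 5 induced mRNAs that were bound after peroxide, each the cluster with most reads except for HSP42, where the shorter cluster of replicate B is given. MSS51 is shown because its whole signal came from 1 short cluster.
OLA1, chrII:290996-291041 (minus strand, ORF): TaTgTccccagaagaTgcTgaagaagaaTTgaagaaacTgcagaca
RPS0A, chrVII:921171-921212 (plus strand, ORF): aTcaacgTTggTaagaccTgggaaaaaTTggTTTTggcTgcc
TRR1, chrIV:1184190-1184251 (plus strand, ORF): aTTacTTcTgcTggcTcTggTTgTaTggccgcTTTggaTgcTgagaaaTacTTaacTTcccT
GRX2, chrIV:1471369-1471422 (plus strand, ORF): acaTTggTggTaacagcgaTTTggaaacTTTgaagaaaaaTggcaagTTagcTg
TRX2, chrVII:912950-912990 (minus strand, ORF): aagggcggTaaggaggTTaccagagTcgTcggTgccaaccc
SRX1, chrXI:278510-278531 (plus strand, ORF): TaTaTTaTgccTTcggcggcTg
HSP42, chrIV:807800-807828 (plus strand, 52 nt after the stop codon): TTaaaaTTTcggcagaaTaTcTgTcaacc
MSS51, chrXII:551818-551832 (minus strand, ORF): ccTTggaTTggaTcc

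Induced mRNAs were taken from libraries that enter neither side of the ratio. In WT, 310 of 5597 mRNAs tested (5.54%) were raised at least 4-fold by peroxide at an adjusted p under 0.05 (edgeR), and 19.4% of all features tested were raised by any amount. In the Slf1-TAP total RNA, where 34.8% of features were raised, 285 of the 310 were raised and 7 lowered at an adjusted p under 0.05, with a median log2 change of 1.72 against 3.0 in WT.

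With every mRNA counted, Slf1 reads on the induced mRNAs took a larger share after peroxide, but by less than their RNA did. The 310 mRNAs took 3.21% and 3.15% of untreated total RNA counts on mRNAs in replicates A and B, and 13.9% and 14.0% after peroxide. They took 3.36% and 3.97% of untreated Slf1 cluster reads (768 of 22886 and 1288 of 32478), and 9.16% and 9.10% after peroxide (2844 of 31036 and 1826 of 20063). Between the conditions the mean share thus differed 4.39-fold in total RNA and 2.49-fold in Slf1 PAR-CLIP, and in both assays the peroxide libraries lay above the untreated libraries without overlap. The share of reads over the share of RNA was 0.658 and 0.65 after peroxide, a mean log2 ratio of -0.61 ± 0.01 (SD, n = 2), against 1.05 and 1.26 untreated (0.20 ± 0.19, SD, n = 2). The difference of -0.81 had an exact permutation p of 0.333 (two-sided), the smallest that 2 libraries against 2 can give, so it is larger than the spread between libraries but cannot pass a threshold. A single mRNA, HSP42, held 190 and 224 of the 768 and 1288 untreated reads on induced mRNAs. After peroxide it held 224 and 187 of 2844 and 1826. Without HSP42 the induced mRNAs held 578 and 1064 reads untreated, and 2620 and 1639 after peroxide. The difference in the ratio without HSP42 was not tested, so how far it rests on this mRNA is not known.

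The ratio after peroxide depended on a single mRNA, OLA1, which encodes an Obg-like ATPase and was not induced. OLA1 took 16.7% and 25.1% of the Slf1 reads on mRNAs after peroxide, which lowers the share left for every other mRNA. With OLA1 out of both totals, the ratio of the induced mRNAs was 0.789 and 0.868, and the difference from untreated was -0.49 on the log2 scale. The difference with both OLA1 and HSP42 left out was not tested. Among clusters with at least 0.1 conversions per read, a filter chosen after seeing the data that removes nearly all OLA1 reads, the induced mRNAs took 11.3% and 12.9% of reads, a ratio of 0.814 and 0.92. The difference from untreated was then -0.55. When the induced mRNAs were taken from the Slf1-TAP total RNA itself, the ratio after peroxide was 0.726 and 0.925 and the difference from untreated -1.59. The untreated ratio was then 2.40 and 2.55. That list was picked for a rise in the libraries of the denominator, so a negative difference was partly set in advance. With WT total RNA as denominator the ratios were 0.718 and 2.24, since the induced mRNAs took 12.8% of mRNA counts in 1 WT peroxide library and 4.06% in the other. Here too the list and the denominator come from the same libraries. With total RNA assigned by GEO's labels, which run against the SRX1 level, the difference turned to 3.10.

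**Figure D1:**
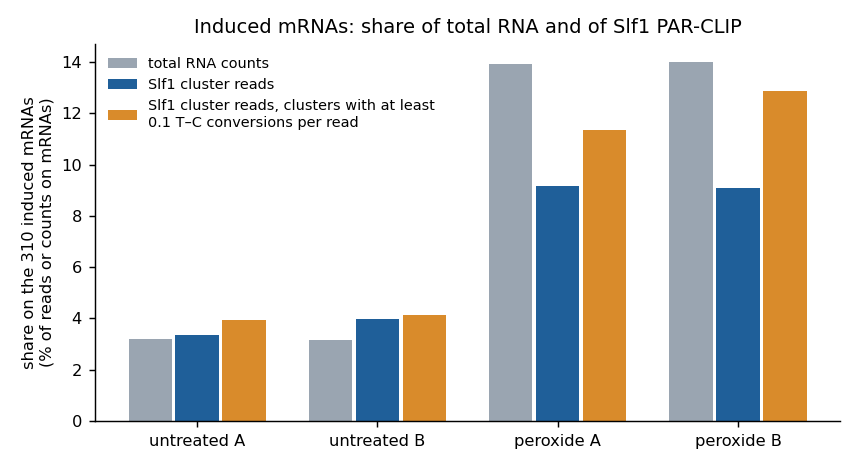
Share of total RNA counts and of Slf1 cluster reads on the 310 induced mRNAs (% of counts or reads on mRNAs) in each of 4 libraries. Bars are single libraries. After peroxide the blue bars reach 9.16% and 9.10% and the orange bars, for clusters with at least 0.1 conversions per read, 11.3% and 12.9%, below the grey bars of total RNA at 13.9% and 14.0%.

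Among the 3 classes that were higher in WT, the ratio did not fall step by step with the degree of induction. The class of at least 16-fold was the lowest of them in both libraries, with and without OLA1. After peroxide, mRNAs that were 2- to 4-fold higher in WT had a ratio of 0.657 and 0.659 (622 mRNAs), those 4- to 16-fold higher 0.701 and 0.665 (247 mRNAs), and those at least 16-fold higher 0.58 and 0.611 (66 mRNAs). The 3 classes thus lay within 0.58 and 0.701 in both libraries. The 3714 mRNAs within 2-fold stood at 1.04 and 1.07, and the 727 that were 2- to 4-fold lower at 1.36 and 1.49, and the 221 that were at least 4-fold lower at 0.851 and 0.931. The class within 2-fold holds OLA1. With OLA1 out of both totals, an alternative added after seeing the data, it stood at 0.93 and 0.882, against 0.789 and 0.88, 0.841 and 0.888, and 0.695 and 0.816 in the 3 higher classes, so in replicate B it no longer lay above all of them. The classes 2- to 4-fold and at least 4-fold lower then stood at 1.64 and 1.99 and at 1.02 and 1.24, above the 3 higher classes in both libraries. In untreated cells the class of at least 16-fold stood at 4.25 and 4.93, and HSP42 held 190 and 224 of its 283 and 460 reads.

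Clusters were few, and most mRNAs had none. A cluster was present on 603 and 289 mRNAs after peroxide, on 195 of 6007 mRNAs in both libraries (3.25%) and on 697 in at least 1 (11.6%). Among the 310 induced mRNAs these counts were 26 and 75 (24.2% with a cluster in at least 1 library). Induced mRNAs made up 23 of the 100 most abundant mRNAs after peroxide, so the classes were also compared at like abundance. Of these 100, 21 of 23 induced and 63 of 77 other mRNAs had a cluster in at least 1 library. Between ranks 101 and 300 the counts were 15 of 29 and 89 of 171, between 301 and 600 they were 13 of 42 and 86 of 258, and between 601 and 1200 they were 9 of 54 and 119 of 546. From rank 1201 to 2400, 13 of 62 induced and 121 of 1138 other mRNAs had a cluster, none of the 13 in both libraries.

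**Figure D2:**
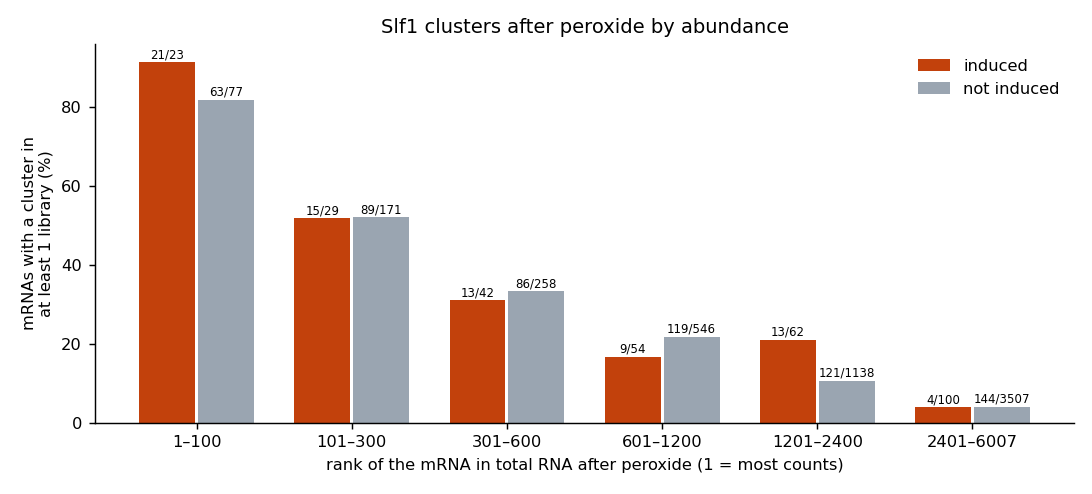
Share of mRNAs with a Slf1 cluster in at least 1 of the 2 peroxide libraries (%), by rank of the mRNA in total RNA after peroxide, for induced mRNAs and the rest. Numbers above bars give mRNAs with a cluster over mRNAs in the class. The bars fall from 91.3% and 81.8% in the first class to 4.0% and 4.11% in the last.

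A set chosen by abundance alone shows how far single mRNAs kept to their level. At 10 or more expected reads in both peroxide libraries, where the expected number is an mRNA's share of total RNA times the library's cluster reads on mRNAs, there were 360 mRNAs. Of these 107 had a cluster in both libraries (29.7%), 108 in 1, and 145 in neither (40.3%). The share of reads was at least 2-fold over the share of RNA in both libraries for 28 (7.78%), within 2-fold in both for 21, and under 0.5-fold in both for 206 (57.2%). The 61 induced mRNAs of the set split in nearly the same way, with 20 in both, 19 in 1 and 22 in neither, 5 of them at least 2-fold over, 4 within 2-fold and 37 under 0.5-fold. Their median ratio was 0.212 and 0, against 0.247 and 0 over all 360. Across these 360 mRNAs, which share the same libraries, cluster reads and total RNA had Spearman's rho of 0.41 and 0.32, and the cluster reads of the 2 libraries had 0.66. The reads of one library thus followed those of the other more closely than they followed abundance.

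**Figure D3:**
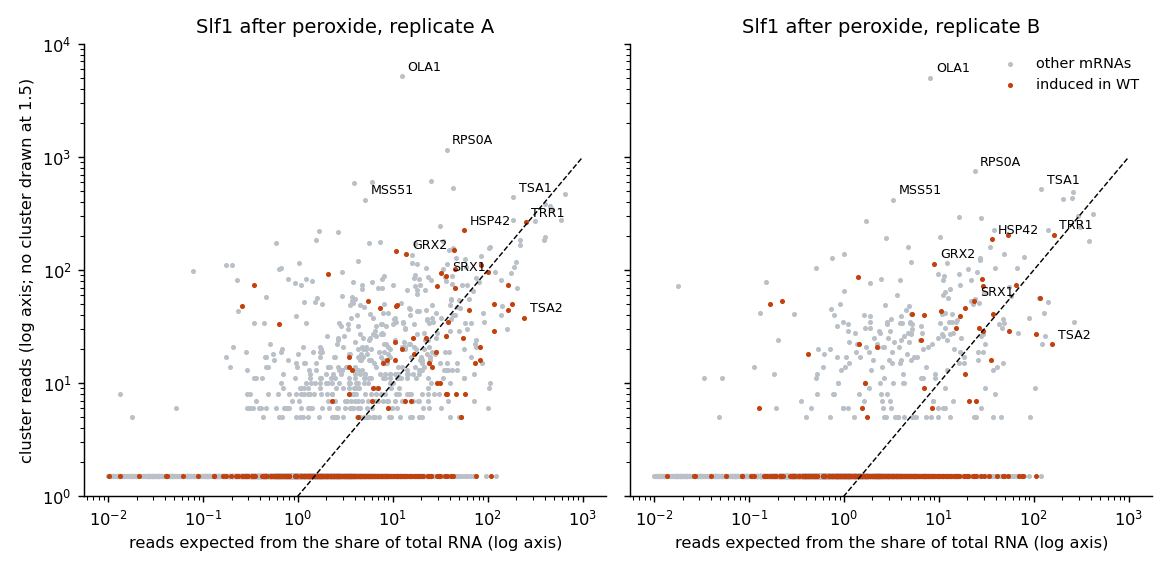
Slf1 cluster reads per mRNA against the reads expected from its share of total RNA, after peroxide, both axes logarithmic, 1 panel per library. Points on the dashed line have equal shares, and mRNAs without a cluster are drawn at 1.5. OLA1 lies far above the line (5170 and 5040 reads), TRR1 lies on it and TSA2 below it in both panels.

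Of the redox mRNAs, TRR1, which encodes cytosolic thioredoxin reductase, had the most reads of any induced mRNA. It held 266 and 205 reads after peroxide against 250.2 and 162 expected, a ratio of 1.06 and 1.27, in 9 and 7 clusters spread over the ORF, 1 of them past the stop codon in replicate A. Its total RNA was 568 RPKM untreated and 8398 RPKM after peroxide, and its reads were 54 and 13 untreated. SOD2, which encodes mitochondrial superoxide dismutase, likewise held 97 and 73 reads against 101 and 65.6 expected, a ratio of 0.956 and 1.11. TRR1 and SOD2 were thus near proportion in both libraries with OLA1 in the totals. All ratios of single mRNAs given here keep OLA1 in the totals. Those of mRNAs with reads would be higher without it.

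Other induced redox mRNAs lay above proportion. GRX2, which encodes a glutaredoxin, held 138 and 114 reads against 13.9 and 8.99 expected, a ratio of 9.92 and 12.7. Its log2 binding over abundance was 3.50 (SE 0.59, adjusted p = 5.39e-08, edgeR). Both libraries had the same pair of sites near the 3′ end of the GRX2 ORF, the second of which is the sequence shown above. TRX2, which encodes a thioredoxin, held 151 and 84 reads, a ratio of 3.46 and 2.97, with an adjusted p of 0.235. SRX1 held 88 and 53 reads, a ratio of 2.40 and 2.24 (adjusted p = 0.831), at the same pair of sites in both libraries. Its total RNA was 9.86 RPKM untreated and 3071 RPKM after peroxide, and it had no cluster and 1 cluster of 5 reads in the untreated libraries. TRX2 and SRX1 were thus above proportion in both libraries without passing the test.

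TSA2 and CCP1 lay below, as did most abundant mRNAs, of which 57.2% were under 0.5-fold in both libraries. TSA2, which encodes a cytosolic peroxiredoxin, stood at 156 RPKM in untreated total RNA and at 13245 RPKM after peroxide, and held 38 and 22 reads against 243 and 157 expected, a ratio of 0.156 and 0.14. It was among the 5 lowest ratios of the 195 mRNAs with a cluster in both libraries, with HSP150, EFT2, PFK2 and STI1, and its adjusted p was 0.838. Its single cluster lay at different places in the 2 libraries, and the second had 2 conversions in 22 reads. CCP1, which encodes mitochondrial cytochrome c peroxidase, held 50 and 57 reads, a ratio of 0.28 and 0.493 (adjusted p = 0.838, edgeR). YNL134C, a peroxide-induced oxidoreductase gene, held 74 and 27 reads, a ratio of 0.455 and 0.257 (adjusted p = 0.82, edgeR).

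TSA2 can be set against TSA1, its close paralogue, which encodes the main cytosolic peroxiredoxin. TSA1 was below the 4-fold limit in WT (log2 change 1.66), so it is not in the induced list, but it went from 1824 to 10099 RPKM in the Slf1-TAP total RNA. TSA1 held 441 and 521 reads after peroxide against 185 and 120 expected, a ratio of 2.38 and 4.35, and 65 and 151 reads untreated, a ratio of 2.63 and 4.31. The ratios of TSA1 in both conditions overlapped, with a log2 change of -0.05 (SE 0.80, adjusted p = 0.993), while both its RNA and its reads were higher after peroxide. After peroxide its log2 binding over abundance was 1.75 (SE 0.45, adjusted p = 0.00136).

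The ORFs of TSA1 and TSA2 are both 591 nt and are identical at 464 positions (78.5%). The cluster with most TSA1 reads, 318 and 280 in the 2 libraries, began at nucleotide 30 of the ORF in replicate A and overlapped that stretch in replicate B. The same place in TSA2 is identical at 43 of 55 positions and had no cluster. The second TSA1 cluster, at nucleotides 203 to 252, held 89 and 146 reads, and TSA2's only cluster in replicate A lay at exactly this place with 38 reads. The 4 sequences are printed to show how alike the copies are, the first pair with a cluster in TSA1 alone and the second with a cluster in both mRNAs.
TSA1, chrXIII:220167-220221 (plus strand): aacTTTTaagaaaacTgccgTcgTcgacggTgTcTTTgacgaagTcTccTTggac
TSA2, chrIV:1365579-1365633 (minus strand): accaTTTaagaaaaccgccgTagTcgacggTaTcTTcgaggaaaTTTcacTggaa
TSA1, chrXIII:220340-220389 (plus strand): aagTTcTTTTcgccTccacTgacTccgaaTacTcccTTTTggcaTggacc
TSA2, chrIV:1365411-1365460 (minus strand): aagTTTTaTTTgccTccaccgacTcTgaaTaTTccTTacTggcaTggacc

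Chaperone and general stress mRNAs were also uneven. HSP42, which encodes a small heat shock protein, held 224 and 187 reads after peroxide, all in 1 cluster after the stop codon, a ratio of 3.99 and 5.15 and a log2 binding over abundance of 2.19 (SE 0.49, adjusted p = 0.000118). The same site held 179 and 214 reads in untreated cells, although total RNA of HSP42 was 190 RPKM there and 1604 RPKM after peroxide. The reads of HSP42 thus overlapped between conditions while its RNA did not. The log2 change of binding over abundance was -2.96 (SE 0.99, adjusted p = 0.151). HSP42 has no cluster in its ORF after peroxide.

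HOR7, a small hyperosmolarity-responsive gene, held 148 and 40 reads, a ratio of 13.8 and 5.75 (adjusted p = 2.24e-05). The modes of its clusters all lay after the stop codon. In replicate A, 111 of its reads were in a cluster of 100 nt that began inside the ORF and spanned the stop codon. DDR2, a stress gene of unknown function, held 25 and 43 reads, a ratio of 1.55 and 4.11. TPS1, which encodes trehalose-6-phosphate synthase, held 16 and 204 reads, so its 2 libraries fell on opposite sides of proportion at 0.194 and 3.82. For TPS1, LYS20 (94 and 7 reads, a homocitrate synthase gene) and OYE2 (111 and 29 reads, an NADPH oxidoreductase gene), the libraries disagree and no side can be given.

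The other induced mRNAs of the 20 with most reads were LSP1 (ratio 2.47 and 2.44, an eisosome core protein), TDH1 (2.26 and 2.44, glyceraldehyde-3-phosphate dehydrogenase), IDH2 (1.53 and 0.993, isocitrate dehydrogenase), STF2 (4.43 and 1.29), DIT1 and SGA1. TDH1 has close copies in TDH2 and TDH3, and its total RNA counts were 28934 and 60537 in the 2 peroxide libraries, so its ratio is uncertain. DIT1 and SGA1, both sporulation genes, had fewer than 1 expected read in either library.

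**Figure D4:**
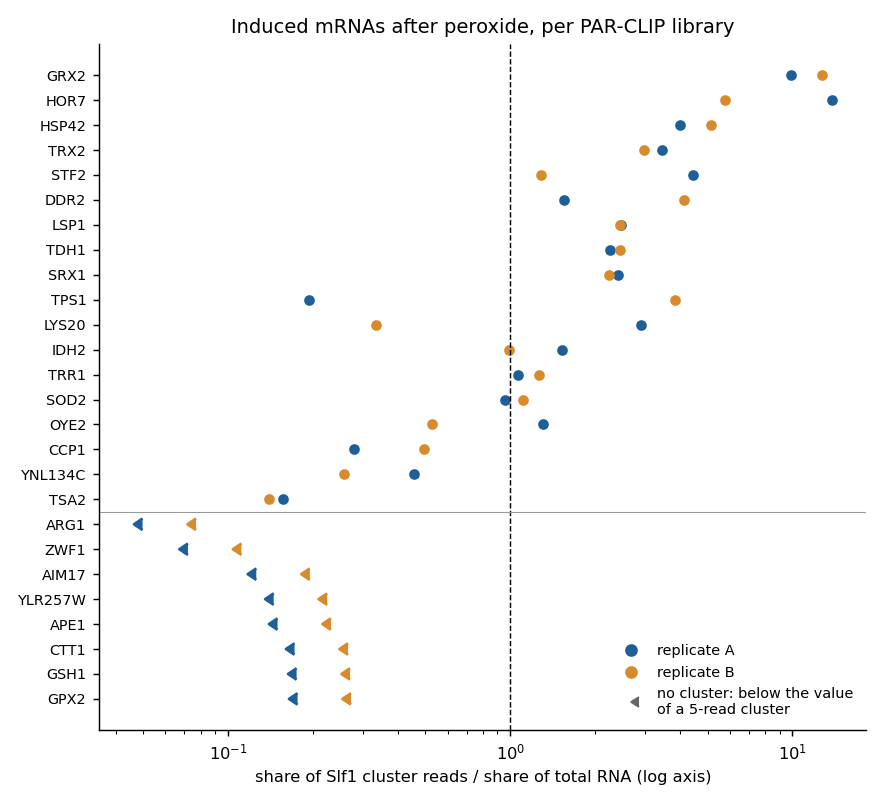
Share of Slf1 cluster reads over share of total RNA (log axis) for induced mRNAs after peroxide, 1 point per PAR-CLIP library. Above the line are 18 of the 20 induced mRNAs with most reads and a cluster in both libraries (DIT1 and SGA1, with few expected reads, are left out), from TSA2 at 0.156 and 0.14 to GRX2 at 9.92 and 12.7. Arrows below it mark 8 abundant induced mRNAs without a cluster, at the value that a 5-read cluster would give.

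Abundant induced mRNAs without any Slf1 cluster after peroxide form the other end. Untreated, ZWF1 had 10 reads and YLR257W 5 in replicate A, and the others had none. ARG1, which encodes argininosuccinate synthetase, would have had 108 and 69.7 reads in proportion to its level, and ZWF1, which encodes glucose-6-phosphate dehydrogenase, 74.4 and 48.1. CTT1, the cytosolic catalase gene, had 31.2 and 20.1 expected reads, GSH1, which encodes the first enzyme of glutathione synthesis, 30.7 and 19.8, and GPX2, a glutathione peroxidase gene, 30.4 and 19.7. AIM17, YLR257W and APE1 (vacuolar aminopeptidase) had between 23.2 and 42.6. The smallest cluster kept, of 5 reads, would have given ARG1 a ratio of 0.0464 and 0.0718 and CTT1 one of 0.16 and 0.248. Binding of these mRNAs was thus not detected at this depth. The value of a 5-read cluster is no upper limit, since piles of reads with fewer than 2 conversions are not in the kept clusters either.

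Across all mRNAs, 863 had enough reads for a test of binding over abundance after peroxide. Of these 96 were over and 4 under their share of total RNA at an adjusted p under 0.05 (11.1% and 0.463%). The 4 under, GCD11, SUI2, DCP2 and KIN2, had no reads after peroxide and reached the 10 reads needed only through their untreated reads, whereas ARG1, AIM17 and CTT1, with more expected reads and none observed, were not tested. The count under is therefore no measure of how many mRNAs were bound below their level. Among 79 induced mRNAs tested, 8 were over and none under, a share near that of all mRNAs. The 8 were GRX2, HSP42, HOR7, DIT1, SGA1, PNS1, SFK1 and YNL092W, the last 3 named because they complete the count. Of the 96, 68 had a cluster in both libraries and 17 had at least 10 expected reads in both. Likewise, an mRNA of low abundance could reach the 10 reads only if it was bound above its level. With 2 residual degrees of freedom and an infinite prior, the fit used 1 common spread, and an mRNA with reads in 1 library alone could pass. When scaled to all cluster reads in place of those on mRNAs, 12 were over and 16 under, and HSP42, GRX2 and TSA1 were below 0. This scaling shifts all mRNAs by nearly the same amount, so it moves the zero point rather than their order.

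The 17 abundant mRNAs that were over were, apart from HSP42, mostly not induced. RPS0A, a gene for a 40S ribosomal protein, held 1164 and 748 reads against 37 and 23.9 expected, nearly all in 1 cluster, with a log2 binding over abundance of 4.97 (SE 0.16, adjusted p = 9.81e-159). Its ratio was 31.4 and 31.2 after peroxide and 35.7 and 35.9 untreated, so that it hardly differed between libraries or conditions. VAS1, which encodes valyl-tRNA synthetase, stood at 24.2 and 18.2, with 604 of 611 and all 297 reads in a cluster of 17 and 18 nt, and with clusters over 20 nt alone its log2 binding over abundance turned to -2.45. TPI1, which encodes triose phosphate isomerase, stood at 12.2 and 10.3. The 17 also held RPL28, RPL2B, RPL40A, RPS12, RPS3, RPS6A, RPS8B and RPS9B, the cyclophilin gene CPR1 (3.84 and 3.84), the cell wall gene CWP2, YDR524C-B and TSA1.

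The 138 mRNAs of cytosolic ribosomal proteins (RP) were above their level in both conditions. They took 20.5% and 21.7% of Slf1 reads after peroxide against 7.42% and 7.69% of total RNA, a ratio of 2.76 and 2.83. Untreated it was 2.54 and 3.43, so the 2 conditions overlap (log2 difference -0.08, exact permutation p = 1). After peroxide 63 of the 138 had a cluster in both libraries, beside 3.25% of all mRNAs, and 29 of 127 tested were over and none under, beside 11.1% over among all mRNAs tested. Many RP genes have a near-identical copy, and reads were kept at up to 10 places, so values of single copies are uncertain. RPP2A held 46 and 92 reads, a ratio of 3.07 and 9.50. RPL39, a small single-copy mRNA, held 52 and 127 reads, a ratio of 44.7 and 169. That ratio rests on only 1.16 and 0.753 expected reads.

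The counts of pathway lists are to be read beside the 96 of 863 mRNAs (11.1%) over among all tested and the 3.25% with a cluster in both libraries. Of 34 redox mRNAs, 11 had a cluster in both libraries, and 2 (GRX2 and TSA1) of 16 tested were over and none under. Of 31 chaperone mRNAs, 2 of 19 tested were over (HSP42 and CPR1), and the abundant Hsp70 mRNAs SSA1 and SSA2 stood at 0.342 and 0.199, and at 0.565 and 0.18. Of 21 glycolysis and fermentation mRNAs, 16 had a cluster in both libraries and 2 of 20 tested were over (TPI1 and PDC5), with PDC1 at 0.724 and 0.746 and FBA1 at 0.726 and 0.783. Of 21 oxidoreductase and detoxification mRNAs, 1 had a cluster in both libraries and none of 6 tested was over or under, and GRE2 (44 and 0 reads), ADH6 (13 and 0) and YDL124W (50 and 0) had reads in replicate A alone.

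Of 11 pentose phosphate mRNAs, GND1 alone had a cluster (56 and 14 reads, ratio 0.891 and 0.345), and none of 3 tested was over or under. Of 38 translation factor mRNAs, 2 of 19 were over (CAF20 and EFB1) and 2 under (GCD11 and SUI2, tested only through their untreated reads), with TEF1 at 0.952 and 1.91, TEF2 at 0.803 and 1.02 and YEF3 at 278 and 0 reads. Of 23 trehalose and general stress mRNAs, 2 of 11 were over (HOR7 and NCE102). For mRNAs of at least 10 expected reads, the median ratio in replicates A and B was 0.589 and 0.493 over 15 redox, 0.344 and 0.123 over 18 chaperone, 0.512 and 0.589 over 18 glycolysis, and 1.52 and 1.52 over 52 RP mRNAs, beside 0.247 and 0 over all 360.

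A change with treatment, relative to the change in abundance, was found for few mRNAs. Of 863, 5 were up and 7 down at an adjusted p under 0.05 (0.579% and 0.811%), and none of them was induced. OLA1 was up by 3.87 on the log2 scale (SE 0.41, adjusted p = 3.21e-18), with 5170 and 5040 reads after peroxide and 290 and 613 untreated, while its total RNA was 342 RPKM after peroxide and 378 RPKM untreated. Its ratio was 411 and 619 after peroxide and 28.3 and 42.2 untreated, without overlap. The others up were PRY1 (599 and 0 reads), NUP60 (589 and 0), ATF2 (0 and 104) and YPL088W (172 and 0), each from 1 library. The PRY1 reads were almost unconverted (14 conversions in 599 reads), and the NUP60 cluster of 17 nt had 588 conversions in 589 reads, a ratio near 1 per read that is also found at 3 loci outside mRNAs which hold most cluster reads. NUP60 shares a run of 6 nt with each of them. The NUP60 cluster also ends in the same run of bases as an oligonucleotide of the library kit, listed for trimming in the paper's methods. Whether the NUP60 reads come from mRNA or from this oligonucleotide was not tested. Without replicate A of the peroxide libraries no mRNA was called, with 15 up and 63 down at an unadjusted p under 0.05, and the OLA1 change also missed the threshold without replicate B (adjusted p = 0.0544) and with DESeq2 (adjusted p = 0.303).

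GCD11 and SUI2, which encode the gamma and alpha subunits of initiation factor eIF2, were down. GCD11 held 1435 and 138 reads untreated and none after peroxide, where 20.5 and 13.2 were expected (adjusted p = 1.21e-19). In untreated replicate A, 673 and 750 of the GCD11 reads lay in clusters with 12 and 13 conversions. SUI2 held 522 and 0 reads untreated and none after peroxide (adjusted p = 2.79e-08). The other mRNAs down were the decapping gene DCP2 (652 and 0 reads untreated), RXT2 (1303 and 0), KIN2 (0 and 390), SYC1 (0 and 234) and YJL047C-A (0 and 700), each resting on 1 untreated library. Thus of the 12 calls only OLA1 and GCD11 had reads in both libraries of the higher condition. A robust fit, added after seeing the data, kept OLA1 up, with SYC1 and NCE102 down.

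OLA1 reads were almost unconverted, as were those of PRY1 after peroxide (0.44% of T bases in replicate A) and of GCD11 untreated (0.405% in replicate A). In OLA1 clusters 0.254% and 0.147% of T bases read after peroxide were converted, against 9.68% and 8.68% over all other mRNAs, 10.04% and 9.40% over the induced mRNAs, and 7.27% and 5.51% for RPS0A. Its largest cluster, shown above, held 2774 reads in replicate B with 4 conversions against 19288 unconverted T. Clusters with at least 0.1 conversions per read held 30 and 39 OLA1 reads after peroxide and 24 and 40 untreated. Counted by conversion events in place of reads, OLA1 held 106 and 64 of 19666 and 10648 events on mRNAs, against 13 and 24 of 16014 and 23916 untreated. The OLA1 change did not pass the test with either measure. In the Sro9 peroxide libraries OLA1 held 411 and 236 reads, of which 10.6% and 10.9% of T bases were converted, so the low conversion was not seen there. It was seen in 1 untreated Sro9 library, where 3302 of 3861 OLA1 reads lay in clusters under 0.1 conversions per read, against none of 223 in the other. Whether the unconverted OLA1 reads come from crosslinked RNA was not tested.

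At the other end stood short clusters with close to 1 or 2 conversions per read. MSS51, which encodes a mitochondrial translational activator, had 1 cluster per library with 418 and 419 reads after peroxide and 439 and 227 untreated, with 832, 834, 878 and 452 conversions. The Sro9 peroxide libraries held 638 and 563 reads on MSS51. Its ratio was 82.0 and 127 after peroxide, with a log2 binding over abundance of 6.71 (SE 0.18, adjusted p = 5.69e-219). In every Slf1 library the MSS51 conversions lay at the same number of positions, 2, so nearly every read was converted at both. Over all mRNAs but OLA1, 9.68% and 8.68% of T bases were converted after peroxide. Whether the MSS51 reads come from crosslinked RNA was not tested. The remaining mRNAs with the highest ratios, JEN1, PML39, SGA1, DIT1, YSW1, SRB7 and PXR1, had fewer than 1 expected read in either library and 1 cluster each, with between 0.905 and 2.00 conversions per read. These values come from few expected reads and single sites, and reads of this kind were present in untreated cells too, with 42 and 34 reads for SGA1 and 107 and 48 for JEN1.

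**Figure D5:**
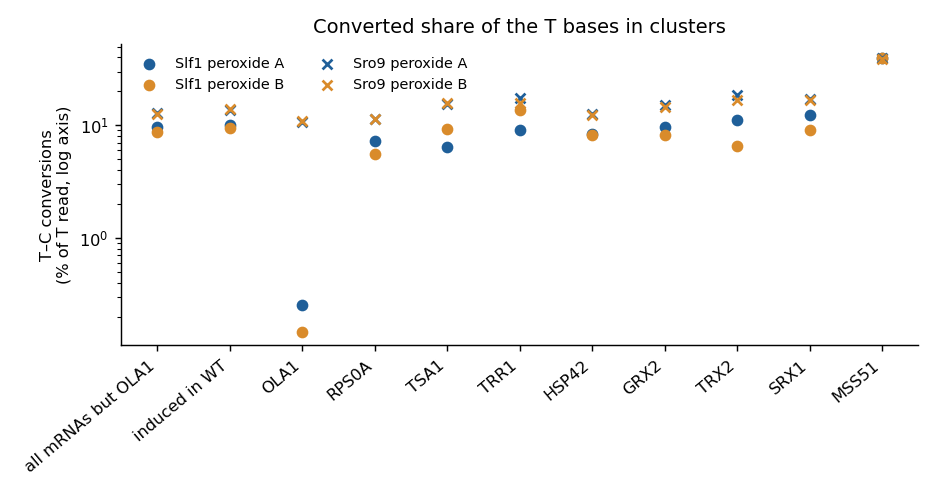
Share of T bases in clusters that were read as C (%, log axis) after peroxide, for all mRNAs except OLA1, the induced mRNAs and single mRNAs. Circles are Slf1 and crosses Sro9 libraries. OLA1 stands at 0.254% and 0.147% for Slf1 and at 10.6% and 10.9% for Sro9, while MSS51 stands near 39.8% in the Slf1 libraries.

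Slf1 sites lay mostly in ORFs, with 91.3% and 92.3% of reads on mRNAs after peroxide. For induced mRNAs the share was lower, 79.2% and 77.5% against 92.6% and 93.7% for the others, and in untreated cells 73.3% and 71.2% against 90.1% and 87.9%. This rests in part on HSP42. Without HSP42 the share in the ORF for induced mRNAs was 86.0% and 86.4% after peroxide and 95.5% and 85.2% untreated, so that in untreated replicate A the order turned. The median cluster had 14 reads in replicate A and 26 in replicate B on induced mRNAs, against 14 and 24 on the others.

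Sro9 served to show where Slf1 differed. After peroxide the induced mRNAs took 12.6% and 10.8% of Sro9 reads against 12.7% and 13.1% of total RNA of the Sro9-TAP files, a ratio of 0.995 and 0.82. The log2 ratio of Slf1 was lower by 0.47 on average, with an exact permutation p of 0.333 (two-sided), the smallest possible. This rests on OLA1, which took 16.7% and 25.1% of Slf1 but 0.159% and 0.12% of Sro9 reads. Without OLA1 the ratios were 0.789 and 0.868 for Slf1 and 0.996 and 0.82 for Sro9, which overlap (log2 difference -0.13, exact permutation p = 0.667). Sro9 had 197 and 183 of the 310 with a cluster, in libraries with 259628 and 196306 reads on mRNAs, so the numbers of bound mRNAs cannot be compared with those of Slf1. For RP mRNAs the ratio was 5.58 and 6.78 with Sro9 and 2.76 and 2.83 with Slf1, without overlap (exact permutation p = 0.333), also without OLA1 (5.59 and 6.78 against 3.32 and 3.78). mRNA by mRNA, none of 3316 differed between Slf1 and Sro9 at an adjusted p under 0.05 in either direction (0.0%, edgeR), with 46 higher in Slf1 and 491 higher in Sro9 at an unadjusted p under 0.05, and a robust fit also gave 0.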

How the data were processed

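Per the paper's methods, the authors trimmed PAR-CLIP reads with Trim Galore, mapped them with Bowtie 1.2.0 to R64 (sacCer3) and ran PARalyzer on every library for clusters. The deposited tables give counts of reads and conversions per cluster. For total RNA the authors depleted rRNA and used featureCounts, and the deposited counts per feature are not normalized. Clusters were assigned to 6007 protein-coding genes by the R64 annotation. An mRNA's ratio is its share of cluster reads on mRNAs over its share of total RNA counts on mRNAs (mean of the 2 libraries for single mRNAs, the library of the same letter for groups of mRNAs). RPKM was computed per kb of coding length.

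Cluster reads were fitted with edgeR 4.0.16 (quasi-likelihood) in R 4.3.3, with expected reads as offset, for mRNAs with at least 10 reads over the 4 Slf1 libraries and 10 mean total RNA counts per condition, with Benjamini-Hochberg adjustment. Total RNA was fitted with edgeR and TMM. DESeq2 1.42.0 was an alternative. The offset fit of the change was tested on simulated data, where it recovered most changes at a small spread and hardly any at the spread of these libraries, so that an mRNA without a call is not shown to be unchanged. Group shares were compared by exact permutation tests in scipy 1.17.1 with Python 3.11.15. Per the methods, PAR-CLIP cultures were grown in duplicate, and total RNA cultures were divided before treatment, also in duplicate.

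Named mRNAs are the 10 with most reads, the 8 highest and 5 lowest ratios with a cluster in both libraries, the 20 induced mRNAs with most reads, the 8 most abundant induced mRNAs without a cluster, all calls of the change, the mRNAs the paper names (GRX2, TSA2, TRX2, TSA1, RPP2A and RPL39) and up to 4 per list by reads. The names among the 17 abundant mRNAs over their share, those completing a count of calls, and NCE102 in the robust fit were added after their values were seen, and 1 of the 17 is not reported here. Members and lists were chosen with earlier results of these data known.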

Additional observations from a re-analysis of the deposited data

Results flagged for a closer look

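Most cluster reads lay outside mRNAs. Of the kept cluster reads, 94.3% in replicate A and 94.2% in replicate B of the Slf1 peroxide libraries fell off mRNAs. They enter the comparisons only through the alternative scaled to all cluster reads. Annotated non-coding RNAs held 8.45% and 23.6% of all kept reads. The same 3 loci, on chromosomes II, VII and IX, held 408163 and 213562 reads, 75.0% and 61.8% of all kept reads, with 1.00 conversions per read, and 68.8% and 63.2% in the untreated libraries. Their clusters share a run of 14 nt, which no Slf1 cluster on an mRNA held within 2 mismatches. That search used the run of these loci and not the oligonucleotide of the library kit. It therefore cannot show whether clusters on mRNAs hold the oligonucleotide. The study trimmed reads for an oligonucleotide of the library kit, and its part in these loci and in the NUP60 cluster was not tested.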

How the results depend on the processing

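The log2 ratio of the induced mRNAs after peroxide, -0.61, was -0.64 with a 2-fold induced list, -0.29 with the list from the Slf1-TAP total RNA, 0.34 with WT total RNA, 1.27 with total RNA by label, -0.27 without OLA1, -0.69 with at least 20 reads per cluster and -0.84 in ORFs alone. Of the alternatives added after seeing the data, it was -0.21 with at least 0.1 conversions per read, -0.68 with clusters over 20 nt, -0.22 by conversion events and -0.66 without 172 mRNAs whose counts differ between the total RNA libraries by a log2 gap over 0.5 (such as TIF1, 15311 and 97130, and its copy TIF2, 82055 and 8608). The peroxide minus untreated difference kept its sign in 18 of 19 alternatives, turning to 3.10 by label, and leaving out 1 library at a time gave -0.94 to -0.68. With the list from the Slf1-TAP total RNA and with WT total RNA, list and denominator share libraries, so the sign there was partly set in advance.

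Counts over and under depended on scaling, being 96 and 4 as reported, 12 and 16 when scaled to all reads, 1 and 123 when scaled to the mapped reads per library, and 41 over with TMM. They were 30 and 9 with DESeq2, 38 and 16 in 1 fit over both assays, 2 under with WT total RNA, 1 under in the robust fit, 1 under with at least 0.1 conversions per read, 49 and 2 with clusters over 20 nt, and 0 under by conversion events. Leaving out 1 library at a time gave 68 to 102 over and 2 to 5 under. The count up and down, 5 and 7, was 3 up when scaled to all reads, 3 up with DESeq2, 1 and 0 in 1 fit over both assays, 3 up with at least 20 reads per cluster, 10 and 11 with total RNA by label, 1 and 2 in the robust fit, 3 and 3 with at least 0.1 conversions per read, 2 and 4 with clusters over 20 nt and 3 down by conversion events, and leaving out 1 library gave 0 to 10 up and 0 to 9 down. In WT it gave 631 to 1646 up, 313 to 1505 down and 266 to 454 mRNAs raised 4-fold.

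Treated and untreated total RNA came from divided cultures, but no label says that a letter marks the same culture, and the deviations of same-letter libraries had correlations of -0.02 for PAR-CLIP, -0.02 for Slf1-TAP total RNA and -0.22 for WT. With the letter as a replicate block, 1442 features were raised in WT and 2395 in the Slf1-TAP total RNA, 53 mRNAs were over, 3 were up and 1 was higher in Slf1 than in Sro9.

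The log2 binding over abundance turned below 0 for some mRNAs. When scaled to the mapped reads it was -2.38 for RPS0A, -5.64 for TSA1, -2.92 for VAS1, -0.67 for MSS51, -5.17 for HSP42, -3.87 for GRX2 and -5.65 for TRX2. When scaled to all reads it was -2.19 for TSA1, -1.75 for HSP42, -0.44 for GRX2 and -2.26 for TRX2, with TMM -0.0697 for TSA1, and with clusters over 20 nt -2.45 for VAS1. HSP42 had no reads after peroxide in its ORF alone. The scalings change library totals alone, so each shifted these mRNAs by nearly the same amount and moved the zero point rather than their order. Other causes were not tested. Cluster reads limit the precision, since a cluster needs 5 reads and 145 of 360 abundant mRNAs had none.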
